A study of Rattus norvegicus with 6 samples.

Results

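The tissue kallikreins are a family of secreted serine proteases whose genes carry the symbol stem Klk. The family was taken here as every non-control array probe whose RefSeq accession belongs to a rat gene with that stem, the plasma kallikrein gene Klkb1 left out, kept where the probe was well above background on all 3 arrays of a group. Of 61657 non-control probes, 21 matched a Klk gene by accession and 11 of these were kept, 1 for each of 11 genes. The members were thus chosen by the array's own background call, and their detection is given as a description. They are 11 of 16 Klk genes with a matched probe, in a gene table that lists 31 Klk genes and pseudogenes.

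Renal cortex RNA came from 3 male Sprague-Dawley rats given o-nitroanisole at 400 mg/kg/day for 4 weeks and from 3 male Sprague-Dawley rats given corn oil, the vehicle, over the same 4 weeks. o-Nitroanisole is a nitroaromatic compound that causes tumours in rodents. All rats were 5 weeks old at purchase and ate a basal diet, and each gave 1 one-colour (Cy3) Agilent array. The comparison asks how the compound alters transcripts of the kidney cortex.

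Tissue kallikrein of the kidney is made in the connecting tubule and released into the tubular fluid, where it cuts kininogen and frees kinins. Kinins act on B1 and B2 receptors, promote salt excretion and blood flow, and are broken down within moments by peptidases of the brush border and the vessel wall. In rodents the gene for this enzyme has been copied many times, and most of the copies, the glandular kallikreins, are best known from the salivary gland and the prostate. Renal kallikrein itself is raised by aldosterone and by potassium.

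By the scanner software's call, 66.4% to 71.5% of the probes on each array exceeded background clearly, and no probe was saturated. All 3 o-nitroanisole arrays lay on slide 2 and all 3 corn oil arrays on slide 1, and the recorded scan date differed between the groups in the same way. Slide, scan and treatment thus cannot be told apart in any difference below. All 10 proximal tubule markers and all 6 podocyte markers looked up were tested. So were all 7 intercalated cell markers, 7 of 8 principal cell markers and 6 of 7 thick ascending limb markers. Passing the background call therefore does not set the cortex apart. Levels are the processed signal divided by the array's 75th percentile, and differences are on the log2 scale, o-nitroanisole minus corn oil, with limma's moderated standard error (SE). The adjusted p is limma's with Benjamini-Hochberg adjustment over the 41096 probes that passed the background call throughout at least 1 group, with a threshold of 0.05. Precision is limited by the 3 arrays per group. In bulk tissue, fewer cells of a type and less RNA per cell cannot be told apart.

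No Klk probe passed an adjusted p of 0.05, and limma called 0 of 41096 probes (0% of those tested), with 7810 at an unadjusted p under 0.05. The probes for the renal enzyme Klk1 and for its copies Klk1b3, Klk1c2 and Klk1c8 were each between 1.44-fold and 1.49-fold higher with o-nitroanisole, with groups that overlapped. Klk1c9, another copy, was 2.71-fold higher and Klk4, a more distant relative, 2.46-fold higher, and for these 2 the groups did not overlap. Klk9 and Klk1c10 were near no difference, the first with little spread between rats and the second with a great deal.

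Klk1, the tissue kallikrein proper, had levels of 132.9, 178.2 and 185.4 in o-nitroanisole cortex, against 90.9, 109.2 and 133.8 in corn oil cortex. The lowest o-nitroanisole rat lay just below the highest corn oil rat, and the other o-nitroanisole rats lay above all corn oil rats. The log2 difference was 0.58 ± 0.19 (SE, n = 3 per group, limma adjusted p = 0.204).

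Klk1c2 encodes tonin, a kallikrein that can release angiotensin II directly from angiotensinogen. Its probe gave 38.6, 52.2 and 56.6 with o-nitroanisole, against 25.9, 32.9 and 40.1 with corn oil, a log2 difference of 0.58 ± 0.21 (limma adjusted p = 0.232). Klk1c8, a glandular kallikrein, gave 20.3, 29.7 and 29.0 with o-nitroanisole, against 14.6, 17.7 and 21.8 with corn oil, a log2 difference of 0.55 ± 0.21 (limma adjusted p = 0.244). In both genes o-nitroanisole replicate 1 lay below corn oil replicate 3 and the other o-nitroanisole rats lay above every corn oil rat. Klk1b3, whose older symbol Ngfg refers to the gamma subunit of nerve growth factor, gave 70.2, 116.1 and 105.9 with o-nitroanisole, against 52.0, 64.3 and 86.8 with corn oil. Its log2 difference was 0.52 ± 0.26 (limma adjusted p = 0.348), and it showed the same overlap by o-nitroanisole replicate 1.

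**Figure D1:**
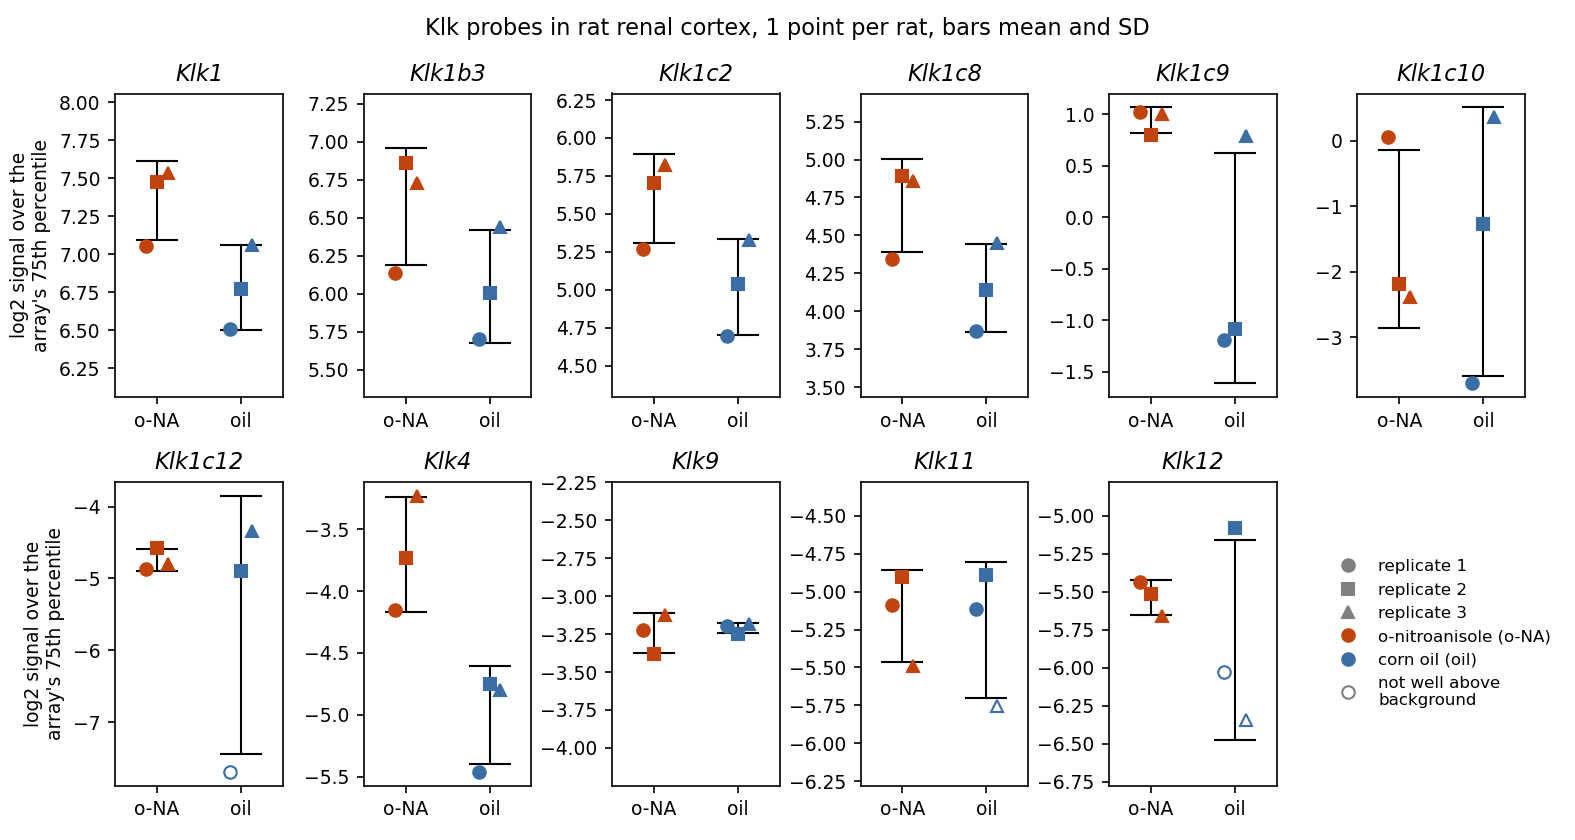
Log2 signal over the array's 75th percentile for the 11 kept Klk probes, 1 panel per gene, with 1 point per rat, o-nitroanisole left and corn oil right, and bars for the mean and SD of 3 rats. Each panel has its own range of at least 2 log2 units. The groups do not overlap for Klk1c9 and Klk4, and open points, which occur in corn oil for Klk1c12, Klk11 and Klk12, were not well above background.

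These 4 probes followed each other rat by rat. After each group's mean was taken away, Pearson's r between any 2 of them over the 6 arrays was between 0.958 and 0.996, over 6 pairs. This is a description of probes read on the same arrays. The following was not confined to these copies. Read the same way, r for Klk4 was 0.851 with Klk1, 0.891 with Klk1c2, 0.81 with Klk1c8 and 0.75 with Klk1b3. Against the same 4 probes, r was between 0.567 and 0.619 for Klk1c9. It was between 0.166 and 0.239 for Klk1c10 and between -0.146 and 0.0851 for Klk9. o-Nitroanisole replicate 1 and corn oil replicate 1 lay below their group means with each of the 4 probes, by -0.30 and -0.27 log2 for Klk1. Corn oil replicate 3 lay above its group mean with each, by 0.28 log2 for Klk1. The change of Klk1c2 differed from that of Klk1 by 0.00 ± 0.03 log2 (SE over arrays, n = 3 per group), that of Klk1c8 by -0.03 ± 0.04 and that of Klk1b3 by -0.05 ± 0.10. The genes are near copies of each other, so transcripts of one may bind the probe of another. The files hold no probe sequences, and the part of such cross-hybridisation was not tested, so the 4 probes are not 4 independent readings.

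**Figure D2:**
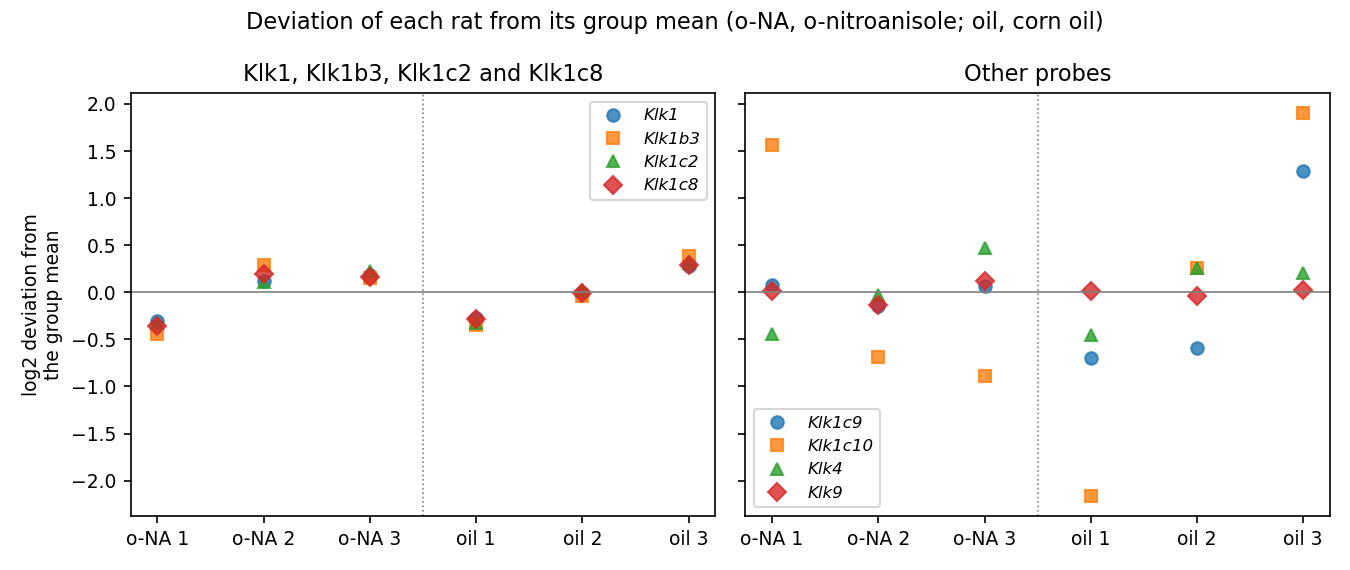
Deviation of each rat from its group mean, in log2 units, for the 8 Klk probes well above background on all 6 arrays, with o-nitroanisole rats left of the dotted line and corn oil rats right of it. In the left panel Klk1, Klk1b3, Klk1c2 and Klk1c8 lie almost on one another in every rat. In the right panel Klk1c10 runs from -2.17 in corn oil replicate 1 to 1.91 in corn oil replicate 3.

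The copies are also alike in the DNA around their annotated starts. RefSeq promoter windows of build GRCr8, from 250 bases before to 50 after each annotated start, were matched by symbol for 9 of the 11 genes, Klk1c9 and Klk4 being the others. The 6-letter box TTTAAA, searched on both strands, stood in the windows of Klk1 and of the 5 glandular copies matched, and in none of Klk9, Klk11 and Klk12. Of 33469 rat promoter windows of the same length, 13.6% held it. The stretches below are shown because they let the copies be compared base by base. Each has 80 bases before the box and 14 after it, 5′ to 3′ on the gene's strand, with the box in capitals. Counted in bases from the annotated start, taken as 0, the box begins at 9 in Klk1, at -27 in Klk1b3, at -34 in Klk1c2, at -42 in Klk1c8, at -77 in Klk1c10 and at -69 in Klk1c12. In Klk1 it thus lies past the annotated start, and in the others before it. Klk1 is at chr1:103779081-103779180 on the plus strand, Klk1b3 at chr1:103845540-103845639 (plus), Klk1c2 at chr1:103633015-103633114 (minus), Klk1c8 at chr1:103684171-103684270 (plus), Klk1c10 at chr1:103543644-103543743 (minus) and Klk1c12 at chr1:103518726-103518825 (minus).
Klk1: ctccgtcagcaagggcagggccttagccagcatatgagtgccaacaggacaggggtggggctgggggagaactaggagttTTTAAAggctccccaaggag
Klk1b3: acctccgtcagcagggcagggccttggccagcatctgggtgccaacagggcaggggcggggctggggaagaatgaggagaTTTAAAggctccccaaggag
Klk1c2: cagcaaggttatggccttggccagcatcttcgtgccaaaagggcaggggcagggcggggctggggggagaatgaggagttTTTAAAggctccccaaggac
Klk1c8: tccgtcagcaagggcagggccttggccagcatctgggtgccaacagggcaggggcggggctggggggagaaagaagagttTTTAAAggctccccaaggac
Klk1c10: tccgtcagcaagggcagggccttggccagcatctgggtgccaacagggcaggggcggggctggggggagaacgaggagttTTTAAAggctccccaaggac
Klk1c12: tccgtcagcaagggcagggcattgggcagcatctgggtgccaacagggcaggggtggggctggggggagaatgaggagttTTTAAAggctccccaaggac

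Aligned in pairs, these stretches were between 86.2% and 98% identical over 92 to 100 aligned bases. Klk1c8 and Klk1c10 were the closest pair, with 98 of 100 bases alike. Their probes did not move alike: Pearson's r between them over the 6 arrays was 0.166 after each group's mean was taken away, as a description. With the group means left in it was 0.120. Over the whole windows, pairs among these 6 genes were between 83.5% and 93.6% identical, while pairs of 1 of them with Klk9, Klk11 or Klk12 were between 69.1% and 82.3% identical, over as few as 59 aligned bases. The value of 82.3%, for Klk11 with Klk1c12, rests on 62 aligned bases. Identity counts only aligned bases, and windows of unrelated genes were not aligned, so the value that such pairs would give is not known. Other motifs were searched on both strands too. The usual TATA box, TATAAA, stood in 0 of the 9 windows and in 14.2% of all windows. The half-site of the androgen and glucocorticoid receptors, TGTTCT, stood in 0 of the 9 and in 20.7% of all. The core bound by the aryl hydrocarbon receptor, GCGTG, stood in 0 of the 9 and in 29.7% of all. These are letter matches, and binding was not measured.

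**Figure D3:**
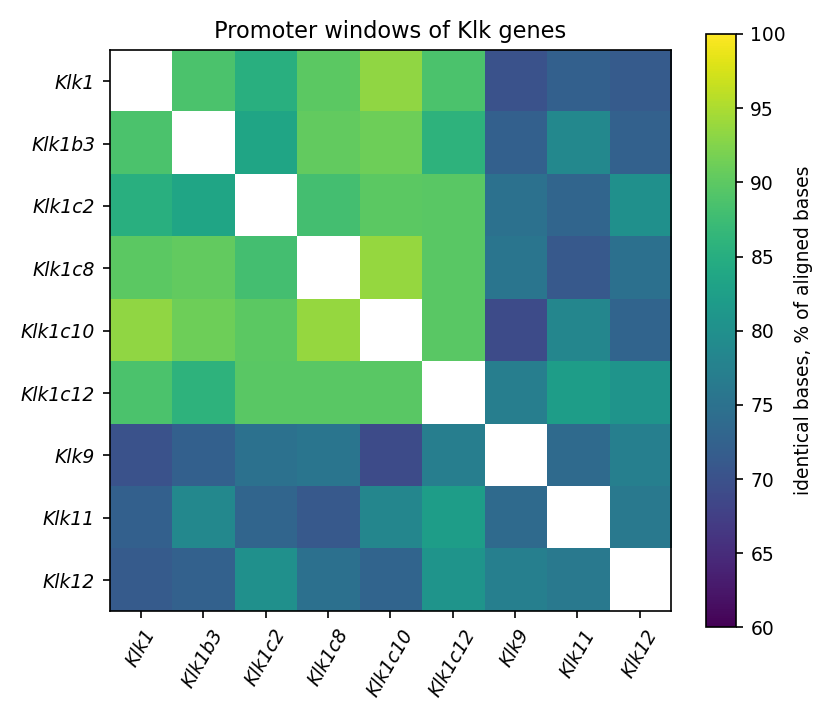
Identity between the promoter windows of 9 Klk genes, as the percentage of aligned bases that are the same, shown by colour. The 6 genes from Klk1 to Klk1c12 form a block between 83.5% and 93.6%, above the values with Klk9, Klk11 and Klk12.

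In the RefSeq gene order of GRCr8, the 31 Klk genes and pseudogenes form a run on chromosome 1, with 8 other genes among them. Klk4 is at place 11 in this run and Klk1c12, the first of the glandular copies, at place 12. Klk1c9 is at place 25 and Klk1 at place 27. Klk9, at place 6, Klk11 and Klk12 lie among the genes that precede Klk4.

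Klk1c9, the submandibular enzyme also called rK9, had levels of 2.03, 1.74 and 2.01 with o-nitroanisole, against 0.438, 0.472 and 1.73 with corn oil. The o-nitroanisole rats lay close together, and of the corn oil rats replicate 3 lay just under them while the others were far below. The log2 difference was 1.44 ± 0.54 (limma adjusted p = 0.239), and without corn oil replicate 3 it was 2.08 (limma adjusted p = 0.0574). The SD was 0.12 log2 within o-nitroanisole and 1.12 within corn oil.

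Klk1c10, known in the rat as T-kininogenase for the kininogen it cuts, had levels of 1.05, 0.220 and 0.191 with o-nitroanisole, against 0.0767, 0.413 and 1.29 with corn oil. The groups overlapped fully. The highest rat was 5.47-fold above the lowest within o-nitroanisole and 16.9-fold within corn oil, against 1.39-fold and 1.47-fold for Klk1. The log2 difference of 0.03 ± 1.18 (limma adjusted p = 0.991) was far smaller than this spread. It lay at -1.05 without corn oil replicate 1, at -0.75 without o-nitroanisole replicate 1 and at 0.99 without corn oil replicate 3.

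Klk1c12, another glandular copy, was well above background on all 3 o-nitroanisole arrays and on 2 of 3 corn oil arrays. Its levels were 0.0343, 0.0421 and 0.0360 with o-nitroanisole, against 0.00483, 0.0334 and 0.0494 with corn oil, where the lowest was at background. The log2 difference was 0.90 and rested on corn oil replicate 1, without which it was -0.12. With normexp background correction it was 0.11.

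Klk4, a protease that clears enamel matrix from growing teeth, had levels of 0.0563, 0.0753 and 0.107 with o-nitroanisole, against 0.0227, 0.0372 and 0.0358 with corn oil. Every o-nitroanisole rat lay above every corn oil rat. The log2 difference was 1.30 ± 0.30 (limma adjusted p = 0.132), the smallest adjusted p of the family. The level is close to background, with raw signals between 21.4 and 96.5 units where the lowest signal called well above background on an array was between 11.3 and 20.5. With normexp background correction, which adds an offset of 50, the log2 difference was 0.69 (limma adjusted p = 0.0688).

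Klk9, a family member of little known function, had levels of 0.107, 0.0959 and 0.115 with o-nitroanisole, against 0.109, 0.105 and 0.110 with corn oil. The groups overlapped, and the log2 difference was -0.03 ± 0.08 (limma adjusted p = 0.852). Klk9 was the kept probe with the smallest SE. A second Klk9 probe was well above background on no array. Its raw signals ran from 2.54 to 4.51 units, against 87.0 to 114.7 for the kept probe. Klk11 and Klk12, trypsin-like enzymes described mainly in humans, were well above background on all 3 o-nitroanisole arrays, and on 2 and 1 of the corn oil arrays. Klk11 had levels of 0.0294, 0.0334 and 0.0222 with o-nitroanisole, against 0.0289, 0.0337 and 0.0185 with corn oil. A second Klk11 probe was well above background on no array. Klk12 had levels of 0.0231, 0.0219 and 0.0198 with o-nitroanisole, against 0.0153, 0.0296 and 0.0123 with corn oil. Neither showed a separation of the groups, with log2 differences of 0.09 and 0.28. For Klk12 the difference was 0.016 without corn oil replicate 3, 0.65 without corn oil replicate 2, and 0.050 with normexp background correction.

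**Figure D4:**
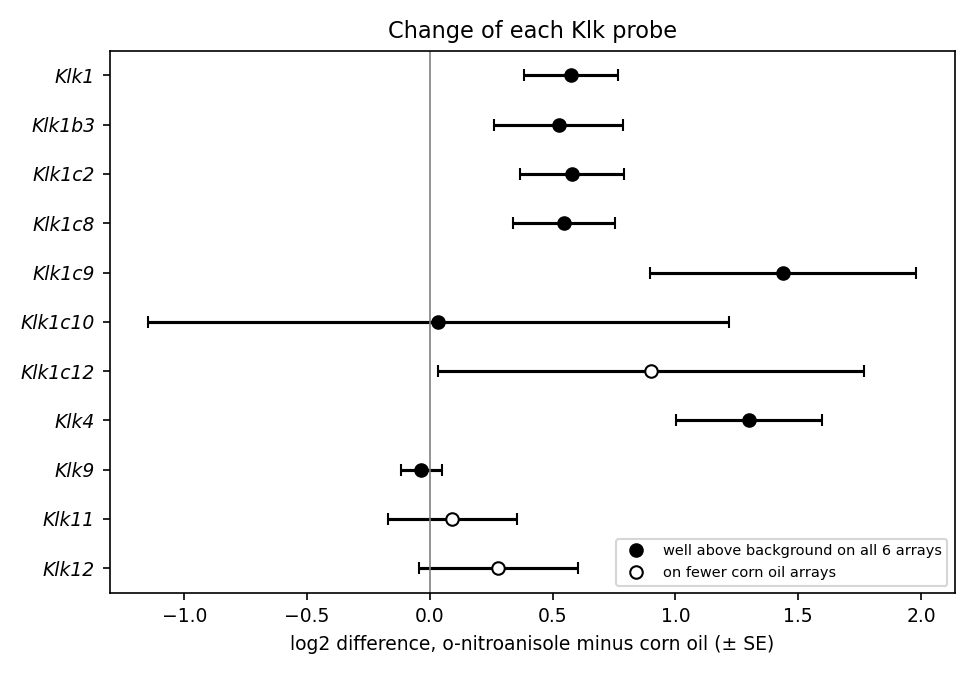
Log2 difference, o-nitroanisole minus corn oil, with its SE (n = 3 rats per group) for the 11 kept Klk probes. Filled points were well above background on all 6 arrays, and open points on fewer corn oil arrays. The points of Klk1, Klk1b3, Klk1c2 and Klk1c8 lie between 0.52 and 0.58, Klk1c9 and Klk4 at 1.44 and 1.30, and Klk9 and Klk1c10 near 0.

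Whether the other probes changed by another amount than Klk1 was compared within arrays, for 7 probes well above background on all 6 arrays. The change of Klk4 was 0.73 ± 0.20 log2 greater than that of Klk1 and the change of Klk9 was -0.61 ± 0.23 relative to it. In both, the groups of within-array differences did not overlap (exact two-sided permutation p = 0.1 each, the smallest that 3 against 3 can give, adjusted p = 0.35 over the 7). For Klk1c9 the change was 0.86 ± 0.54 greater (exact permutation p = 0.3).

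Of the 11 kept probes, 3 were kept through the o-nitroanisole arrays alone, Klk1c12, Klk11 and Klk12, and 0 through the corn oil arrays alone. Groups did not overlap for 2 of the 11, both higher, against 27.2% of all probes tested in either direction and 17.5% in the higher direction, so the family's share was near the background. The share of all probes in the lower direction was 9.74%, and 0 Klk probes were among them. An unadjusted p under 0.05 was reached by 5 of the 11, all higher, against 19% of all probes tested (11.8% higher and 7.23% lower), and 3 of the 5 are the near copies Klk1, Klk1c2 and Klk1c8. With a variance trend and robust moderation, limma called 0 Klk probes and 1.61% of all probes (1.25% higher and 0.365% lower).

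The 10 probes not kept belong to 7 genes and were well above background on no array for 8 of them and on 1 array for 2. Klk6 (neurosin), Klk7 (an enzyme of the shedding skin layer), Klk8 (neuropsin), Klk10 and Klk13 had no kept probe, and for Klk9 and Klk11 a second probe was not kept. Closest inside the limit was Klk12, with raw signals of 22.5, 19.8 and 17.9 on the o-nitroanisole arrays. Closest outside it was a probe of Klk13, with raw signals of 5.83, 8.04 and 9.48 with o-nitroanisole, against 6.08, 14.2 and 13.5 with corn oil, of which 1 was called. A further 8 protein-coding Klk genes of the table, among them Klk1c3, Klk1c4, Klk1c6, Klk5, Klk14 and Klk15, were matched to no probe by accession and are not analysed here.

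Genes that work with kallikrein were looked up in 7 lists by role, 70 genes in all, of which 63 were tested by their brightest probe. limma called 0 of the 63 at an adjusted p of 0.05, with 20 at an unadjusted p under 0.05, which 19% of all probes reached. The median log2 difference was 0.08, against 0.03 over all probes tested. Of the 63, 38 lay above 0, and of the 41096 probes tested 22980 did. Groups did not overlap for 14 higher and 8 lower genes of the 63, against 17.5% and 9.74% of all probes. With a variance trend and robust moderation, 4 passed, against 1.61% of all probes, with 2 higher and 2 lower. Tmprss2 was among the higher genes and Plau among the lower ones. Without 1 array at a time, that fit called between 0 and 1 of the 63.

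The substrates of the kallikreins overlapped widely between groups. Kng1, a kininogen gene, had levels of 0.566, 0.248 and 0.627 with o-nitroanisole, against 0.131, 0.0879 and 1.08 with corn oil (log2 difference 0.94 ± 1.00, limma adjusted p = 0.646). Kng2, a second kininogen gene, had levels of 0.794, 0.317 and 0.860 with o-nitroanisole, against 0.130, 0.113 and 1.31 with corn oil (log2 difference 1.16 ± 1.03, limma adjusted p = 0.581). In both genes corn oil replicate 3 was the highest of the 6 rats and the other corn oil rats were the lowest, and in Klk1c9 too corn oil replicate 3 stood apart above the other corn oil rats. Klkb1, the plasma kallikrein gene, had levels of 0.0722, 0.341 and 0.294 with o-nitroanisole, against 0.0538, 0.0705 and 0.304 with corn oil, again with corn oil replicate 3 alone high in its group. Its log2 difference was 0.88 ± 0.88 (limma adjusted p = 0.623), and Klkb1 was named after its values were seen.

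The kinin receptors did not separate the groups. Bdkrb1, the inducible B1 receptor, had levels of 0.0183, 0.0295 and 0.0408 with o-nitroanisole, against 0.0281, 0.0230 and 0.0323 with corn oil (log2 difference 0.03 ± 0.31, limma adjusted p = 0.971). Bdkrb2, the standing B2 receptor, had levels of 0.0891, 0.109 and 0.0890 with o-nitroanisole, against 0.0814, 0.104 and 0.0945 with corn oil (log2 difference 0.04 ± 0.13, limma adjusted p = 0.904).

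Among peptidases that break kinins or related peptides, 16 of 18 were tested, with 11 log2 differences below 0 and 5 above, and a median of -0.17. Groups did not overlap for 6 lower and 2 higher genes of the 16, against 9.74% and 17.5% of all probes. Mme, or neprilysin, the main kinin-cleaving enzyme of the brush border, had levels of 11.5, 8.22 and 8.75 with o-nitroanisole, against 20.7, 11.7 and 19.4 with corn oil (log2 difference -0.84 ± 0.25, limma adjusted p = 0.181). The highest o-nitroanisole rat was just under the lowest corn oil rat. Ace, the angiotensin-converting enzyme, also called kininase II, had levels of 0.371, 0.316 and 0.350 with o-nitroanisole, against 0.566, 0.443 and 0.545 with corn oil (log2 difference -0.58 ± 0.12, limma adjusted p = 0.120). Its 3 probes ran from -1.03 to -0.58. The brush border aminopeptidases Anpep and Enpep, named after their values were seen, lay at -0.72 ± 0.21 and -0.34 ± 0.08 log2 (limma adjusted p = 0.173 and 0.137). The 2 probes of Enpep ran from -0.34 to -0.14. The 5 peptidases above 0, also named after their values were seen, went the other way. They were Cpm at 0.67 ± 0.47, Cpn1 at 0.38 ± 0.14, Xpnpep1 at 0.22 ± 0.07, Dpp4 at 0.20 ± 0.10 and Ece1 at 0.16 ± 0.17. For Cpn1 and Xpnpep1 the groups did not overlap.

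**Figure D5:**
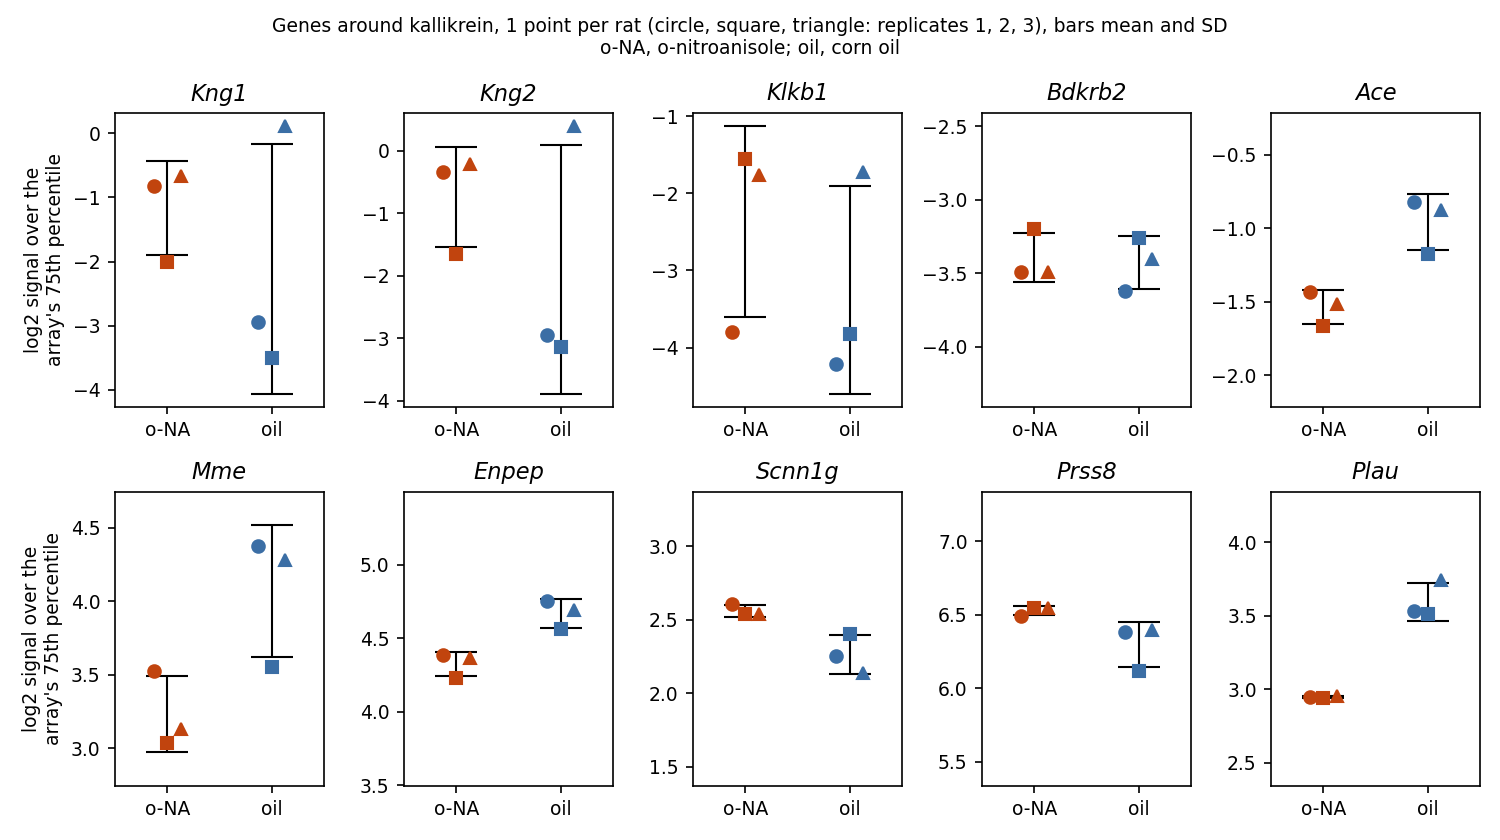
Log2 signal over the array's 75th percentile for 10 genes around kallikrein, with 1 point per rat, o-nitroanisole left and corn oil right, and bars for the mean and SD of 3 rats. Each panel has its own range of at least 2 log2 units. Corn oil replicate 3 stands apart from the other corn oil rats for Kng1, Kng2 and Klkb1, the o-nitroanisole rats lie below all corn oil rats for Ace, Mme, Enpep and Plau, and above them for Scnn1g and Prss8.

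Of 10 serine protease inhibitors tested, the one farthest from no difference was Serpina3n, an acute phase inhibitor, at -1.06 ± 0.77 log2 (limma adjusted p = 0.502). Of 10 other serine proteases of the tubule, Plau, the urokinase that activates plasminogen, had levels of 7.72, 7.69 and 7.75 with o-nitroanisole, against 11.6, 11.4 and 13.4 with corn oil. The groups were far apart for their spread, with a log2 difference of -0.65 ± 0.08 (limma adjusted p = 0.0847, and 0.0249 with a variance trend and robust moderation). Prss8, or prostasin, which cuts the epithelial sodium channel, lay at 0.23 ± 0.09 (limma adjusted p = 0.258). Tmprss2, a membrane serine protease, lay at 0.30 ± 0.06 (limma adjusted p = 0.115).

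Of 9 transport proteins that kallikrein or its neighbours act on, 7 lay above 0. Scnn1g, the sodium channel subunit that tubular proteases cut, had levels of 6.10, 5.82 and 5.80 with o-nitroanisole, against 4.77, 5.28 and 4.40 with corn oil (log2 difference 0.30 ± 0.08, limma adjusted p = 0.165). Its groups did not overlap. The proton pump Atp12a, at -0.45 ± 0.32 (limma adjusted p = 0.492), was farthest from no difference in this list. Among hormone signals upstream of renal kallikrein, 11 of 13 genes were tested, with 6 below 0 and 5 above. Sgk1, a kinase induced by aldosterone, was farthest from no difference at -0.77 ± 0.46 (limma adjusted p = 0.421), and the aldosterone receptor gene Nr3c2 lay at 0.03 ± 0.06 (limma adjusted p = 0.848).

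Markers of the cells around the kallikrein source were read beside these values. Of 11 markers of the connecting and distal convoluted tubule, 8 were tested, with 5 above 0, 3 below and a median log2 difference of 0.28. Counts above 0 stand beside 22980 of all 41096 probes tested that lay above 0. A summed level adds the linear levels of the genes tested in a list, so the brightest genes weigh most. The summed level of these markers was between 5.51 and 5.82 log2 with o-nitroanisole, against 5.43 to 5.53 with corn oil, so the groups overlapped. Calb1, the calcium-binding protein of this segment, had the largest difference of the 8, at 0.64 ± 0.33 (limma adjusted p = 0.360). The 3 below 0 were Kl at -0.15 ± 0.08 (limma adjusted p = 0.371), Sall3 at -0.11 ± 0.18 and Slc8a1 at -0.05 ± 0.40. For Kl the groups did not overlap. Other probes of Sall3 and Slc8a1 reached 0.49 and 0.56. All 7 intercalated cell markers lay above 0, with a median of 0.42 and a summed level between 7.50 and 7.66 log2 with o-nitroanisole, against 7.08 to 7.32 with corn oil. Of 7 thick ascending limb markers, 6 were tested (Slc12a1 was not), with 4 below 0, 2 above and a median of -0.17. Summed, they lay between 8.74 and 8.83 log2 with o-nitroanisole, against 8.98 to 9.10 with corn oil. Umod, the brightest of them, averaged 8.63 log2 with o-nitroanisole and 8.88 with corn oil, so it carried most of this sum. The 4 red blood cell markers tested, of 7 listed, lay between 0.67 and 1.98, with a summed level between 8.03 and 8.29 log2 with o-nitroanisole, against 7.39 to 7.60 with corn oil. Hbb, the brightest of the 4, averaged 8.10 log2 with o-nitroanisole and 7.43 with corn oil, so it carried most of this sum. Slc4a1, with the smallest difference of the 4, is also among the 7 intercalated cell markers, so these lists are not separate readings. The 7 principal cell markers tested had a median of 0.26 and a summed level between 7.37 and 7.60 log2 with o-nitroanisole, against 7.31 to 7.42 with corn oil. Of 8 neutrophil and mast cell markers, 3 were tested, with a summed level between 1.64 and 1.77 log2 with o-nitroanisole, against 1.43 to 1.62 with corn oil. The neutrophil genes S100a8 and S100a9 lay at 1.76 ± 0.27 and 1.15 ± 0.19 (limma adjusted p = 0.0985 and 0.104, and 0.0406 and 0.0433 with a variance trend and robust moderation), with groups that did not overlap, and the mast cell gene Tpsab1 at -0.04 ± 0.08. Tpsab1 was the brightest of the 3, with means of 1.36 log2 with o-nitroanisole and 1.40 with corn oil, so it carried most of their sum. Mpo, Elane, Cpa3, Mcpt1 and Cma1 were not tested. Of 7 macrophage and lymphocyte markers, 4 were tested, with a median of 0.19 and a summed level between 0.844 and 1.42 log2 with o-nitroanisole, against 1.13 to 1.21 with corn oil. Of 8 salivary gland markers, 3 were tested, with log2 differences between -0.61 and 0.80 and a summed level between -0.89 and -0.74 log2 with o-nitroanisole, against -1.08 to -0.99 with corn oil. Prpmp5, the brightest of the 3, averaged -1.20 log2 with o-nitroanisole and -1.35 with corn oil, so it carried most of their sum. Amy1a, Prol1, Muc19, Pip and Bpifa2 were not tested. The part of each of these cell types in the kallikrein values was not tested.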

How the data were processed

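The deposited scanner files give an intensity per spot, background-subtracted within the array per the file headers. The submitters' processing notes name Feature Extraction 10.7. The deposited value table is a linear ratio: each column equalled the processed signal of an array over its 75th percentile within 1% for 100% of probes well above background. Its corn oil columns matched the corn oil files in another order, so corn oil replicate numbers here follow the scanner files. Probes were named through RefSeq accessions in a gene table of GRCr8 (27460 of 33356 matched), while the array design names rn4.

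The log2 of processed signal over the array's 75th percentile was tested with limma 3.58.1 in R 4.3.3, each probe on its own, outlier spots set to missing and 84 spike-in probes left out. limma was tried on simulated data. Tables and plots used Python 3.11.15, pandas 2.3.3 and matplotlib 3.10.9.

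The family and the lists were chosen with earlier results of these data known. Named were the 11 kept genes, the largest difference per list, 8 preset genes and those stated otherwise, of which some are not reported here. Tmprss2, Nr3c2, Calb1, Kl, Sall3, Slc8a1, Slc4a1, Hbb, Umod, S100a8, S100a9, Tpsab1 and Prpmp5 were named after their values were seen. The replicate numbers were not taken to pair rats. Deviations of same-numbered arrays correlated at 0.0805, 0.0587 and 0.0249, all under 0.1. Those of differently numbered arrays correlated between -0.0957 and 0.0324. With 3 arrays per group, these values cannot exclude a pairing.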

Additional observations from a re-analysis of the deposited data

How the results depend on the processing

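The count of 0 Klk probes past the threshold held with a variance trend and robust moderation, normexp, median or quantile scaling, the filter on dim probes dropped or asked of all 6 arrays, the value table, outlier spots kept, array weights, the replicate block (0 calls, Klk4 at an adjusted p of 0.184), genes by their brightest probe, and without any 1 array. Leaving out arrays in the trend and robust fit, chosen after seeing the data, called 0 to 1 Klk probe, Klk1c9 without corn oil replicate 3 (adjusted p = 0.0068). Of the 63 genes around kallikrein, the trend and robust fit called 4 (0 to 1 without 1 array) and normexp 1. Over all probes these gave 663 (0 to 76 without 1 array) and 143, and the default fit 0 to 4 without 1 array. Signs turned for members near 0 or resting on 1 rat. Without 1 array, Klk11 ranged from -0.16 to 0.27 (-0.16 without corn oil replicate 3, -0.037 without o-nitroanisole replicate 2), Klk1c10 from -1.05 to 0.99 (-0.75 without o-nitroanisole replicate 1), Klk1c12 from -0.12 to 1.55 and Klk9 from -0.094 to 0.035. Klk12 ranged from 0.016 to 0.65 without 1 array. Normexp put Klk12 at 0.050, Klk1c12 at 0.11, Klk1c10 at -0.076 and Klk9 at 0.055, and array weights put Klk1c10 at -0.18. The cause was not tested. Under every setting run, Klk1, Klk1b3, Klk1c2, Klk1c8, Klk1c9 and Klk4 stayed above 0, with Klk1 between 0.42 and 0.73. The replicate block changed no call. The normexp setting used the median signal, since the files as read carry no mean signal column. Choosing members by gene name and the slide block were not run: the files as read carry no gene name column, and no slide held both groups. Probes near background limit Klk4, Klk11, Klk12 and Klk1c12.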

Other observations

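A probe of Klk6, the brain enzyme neurosin, was well above background on corn oil replicate 3 alone. Its raw signals were 3.17, 4.24 and 7.01 with o-nitroanisole, against 4.46, 8.69 and 321.8 with corn oil, and the bright spot carried no outlier mark. The other probe of Klk6 was not well above background on that array, with a raw signal of 4.35. The same rat had the highest level of Klk1c10, Kng1 and Kng2 among all 6 rats.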
